A study of Danio rerio with 6 samples.

Results

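The HNF4 genes encode nuclear receptors, DNA-binding transcription factors of the zinc-finger class that act as homodimers on paired AGGTCA-like half-sites spaced by a single base (DR1 elements). HNF4A is known as a central regulator of hepatocyte, gut and kidney tubule gene expression. HNF4G, its closest mammalian relative, is known from the mouse intestine, where both act together in enterocytes, and hnf4b is a further member found in fish. Olfactory neurons are not a tissue these receptors are known for.

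The set held 3 genes by name, among 32469 gene rows in all. HNF4G (ENSDARG00000071565) was chosen by its measured counts, which were near 0 in all controls and above 0 in all gallein samples, and HNF4A (ENSDARG00000021494) and hnf4b (ENSDARG00000104742) were added by their names alone. Rows were present for 2 of the 3. The identifier paired with hnf4b matched no row, so hnf4b was not analysed here. Levels and differences of HNF4G between gallein and control are therefore a description of the values that chose it, with no test, while those of HNF4A could be tested.

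All samples came from larvae carrying OMP-Gal4 and UAS-GCaMP1.6, in which the promoter of the olfactory marker gene OMP drives a green calcium sensor, at 5 days post fertilization. Treatment of the embryos began at 16 to 20 hours post fertilization. They were kept in 100 µM gallein, an inhibitor of the G protein beta-gamma dimer, or in DMSO as control, with the medium renewed every 24 hours. Heads were dissociated, green cells were sorted as olfactory sensory neurons, and poly(A) RNA was sequenced in 3 biological replicates per group. The study's title concerns odorant receptor silencing by this dimer.

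Gene counts ranged from 34845638 to 40295728 in the controls, those of gallein from 30822664 to 38101548. Spike-in RNA took 2.24% to 4.53% of gene plus spike-in counts in the controls against 5.69% to 9.21% in gallein. The level of OMP, whose promoter marked the sorted cells, was 13.4, 6.96 and 7.80 CPM in control replicates 1 to 3. CPM are counts per 1000000 counts of a library, scaled by TMM factors. In gallein replicates 1 to 3 OMP was at 4.79, 0.192 and 4.99 CPM. Gallein replicate 2 held only 4 OMP counts, so the defining marker of the sorted cells was close to absent there. No gene passed the edgeR threshold (Benjamini-Hochberg adjusted p of 0.05, two-sided) among the 18271 tested, 0% in either direction, although 1187 genes (6.5%) had an unadjusted p under 0.05. Counts of 0 past this threshold in the gene lists below were fixed by that result and say nothing particular about a list. The DESeq2 Wald test called 55 genes higher (0.301%) and 39 lower (0.213%), and limma-voom called 0. All of these are bulk measurements, in which fewer cells of a type and less RNA per cell cannot be told apart.

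HNF4G transcripts were counted in every gallein library and in only 1 control library. Control replicates 1 to 3 held 2, 0 and 0 counts, and gallein replicates 1 to 3 held 46, 79 and 83. In CPM the controls stood at 0.0503, 0 and 0 and the gallein samples at 1.75, 3.80 and 2.25. All gallein samples lay above all controls, as the choice of the gene required, and the group levels were 0.0168 ± 0.0290 and 2.60 ± 1.07 CPM (SD, n = 3). A count of 0 allows up to 0.0513 CPM in control replicate 2 and 0.0691 CPM in control replicate 3, taking 3 counts as the limit.

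Pooled over libraries, 208 gallein counts stood against 2 control counts, a 175-fold ratio of scaled levels with an exact 95% interval of 48.0 to 1458. With library size only it was 116-fold, and with spike-in totals as library size 51.7-fold (14.1 to 429). Each interval covers counting error only, treats reads as independent and leaves out the spread between samples. Reads of an amplified library are not independent molecules, so it can be too narrow even for counting error. Since these counts chose the gene, the interval is a description and not a test. The 2 control counts all came from control replicate 1, in the second of its 2 files. Without that library no control count remained, and the level in gallein was at least 84.1-fold higher, against a limit of 3 counts over the remaining controls. Without control replicate 2, the deepest of them, the ratio was 103-fold.

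**Figure D1:**
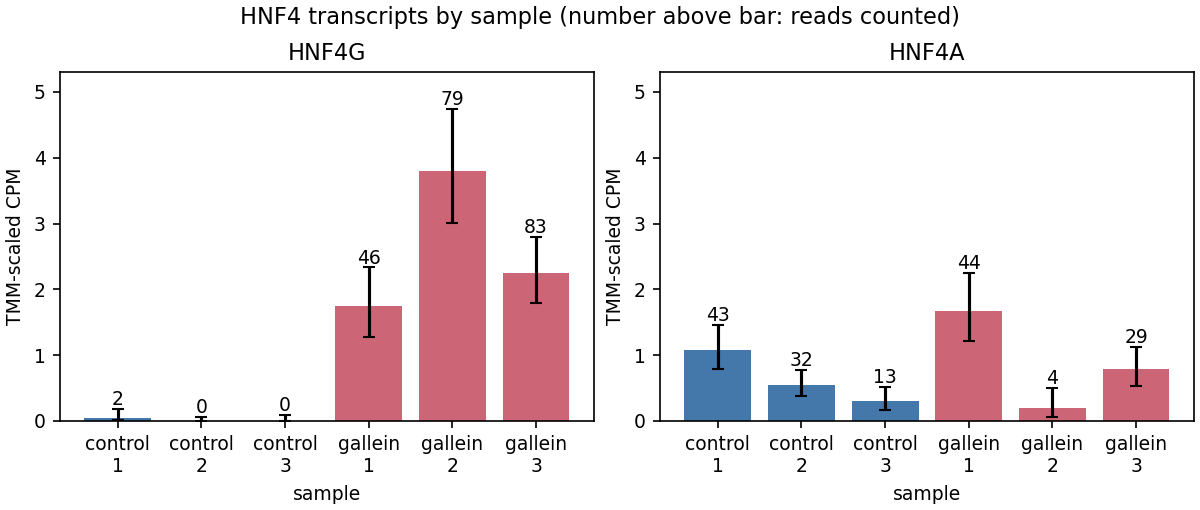
TMM-scaled CPM of HNF4G (left) and HNF4A (right) in each of the 6 samples, controls in blue and gallein in red; bars are single samples, whiskers exact 95% Poisson intervals of the count, and the number above each bar is the count. HNF4G stands between 1.75 and 3.80 CPM in gallein and at or under 0.0503 CPM in controls, while the HNF4A samples of the groups interleave.

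Among the gallein samples the HNF4G level differed 2.17-fold between the lowest and the highest. Gallein replicate 2 stood highest, and its exact 95% Poisson interval of 3.01 to 4.74 CPM did not overlap that of replicate 3 (1.79 to 2.79 CPM). The intervals of replicates 3 and 1 overlapped, the latter reaching from 1.28 to 2.33 CPM. This order depended on the scaling. With library size only the gallein replicates were at 1.21, 2.43 and 2.69 CPM, and with spike-in totals as library size at 0.811, 1.43 and 2.66 CPM, so that replicate 3 was highest by both and replicate 1 lowest by all of these scalings. Set against spike-in RNA, HNF4G had 13.6, 24.0 and 44.6 counts per 1000000 spike-in counts in gallein replicates 1 to 3 and 1.11, 0 and 0 in the controls.

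**Figure D2:**
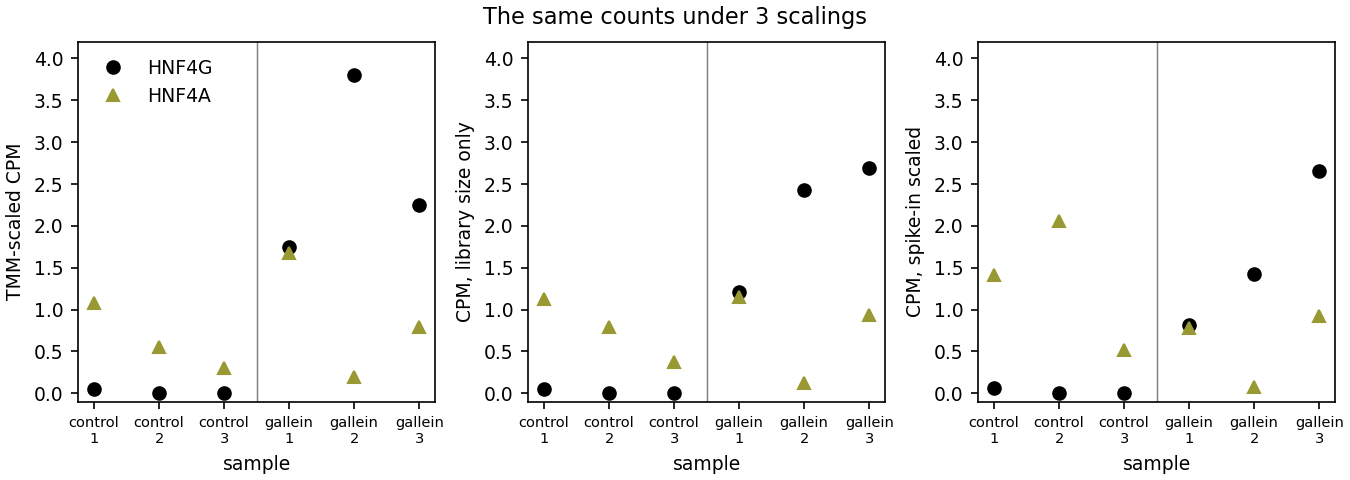
Levels of HNF4G (black circles) and HNF4A (olive triangles) in the 6 samples by TMM-scaled CPM (left), CPM by library size only (middle) and CPM scaled by spike-in totals (right), each point 1 sample. HNF4G in gallein stays above all controls in each panel, and gallein replicate 2 goes from highest at 3.80 CPM to below replicate 3 at 1.43 against 2.66 CPM.

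Counts were also compared between the 2 files of a sample. The sources do not say what these files are, or whether they come from the same library. In gallein replicates 2 and 3, the first file held 57.0% and 53.0% of the HNF4G counts, beside 52.2% and 52.8% of all gene counts. In gallein replicate 1 it held 33 counts against 13, or 71.7% (exact 95% interval 56.5% to 84.0%), where 52.2% of all gene counts lay in that file. The exact binomial test, two-sided, gave p = 0.00787 for this split and 0.0630 after Benjamini-Hochberg adjustment over the 8 splits tested in both genes. It compares the files of 1 sample and does not bear on the treatment.

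Few genes were as nearly absent from 1 group and as steadily counted in the other. Of 9191 gene rows with at most 2 counts in every control, 64 had at least 1 count in every gallein sample, and 2 had at least 10. HNF4G was the only one with 46 or more, a limit set by its own lowest gallein count. The next was OGFOD2, with 0, 1 and 2 counts in the controls against 23, 10 and 18 in gallein, and after it ENSDARG00000079971, whose lowest gallein count was 9. These neighbours were picked for their values and show where HNF4G lies among the genes that its rule could have chosen.

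The opposite pattern was found in more genes. Of 10489 gene rows with at most 2 counts in every gallein sample, 475 had at least 1 count in every control, 45 at least 10 and 2 at least 46. The latter were ptgfrnb, with 185, 164 and 174 counts in the controls against 1, 1 and 0 in gallein, and ENSDARG00000076267, with 63, 65 and 51 against 0, 2 and 2. Both were named after their values had been seen. The gallein libraries also had fewer genes with any count, with 34.6% to 38.3% of gene rows at 0 against 27.2% to 34.3% in the controls.

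Uneven detection was common at this depth. Of 4363 genes whose total over the 6 libraries lay between 105 and 420 counts, around the 210 of HNF4G, 44.5% had more than 2 counts in every library. For 250 genes (5.73%) exactly 3 libraries held at most 2 counts, as for HNF4G. The 3 low libraries were the controls in 2 of these genes, HNF4G among them, and the gallein samples in 32.

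HNF4A was counted in all 6 samples and did not separate the groups. Control replicates 1 to 3 held 43, 32 and 13 counts, and gallein replicates 1 to 3 held 44, 4 and 29. In CPM these were 1.08, 0.547 and 0.299 in the controls against 1.67, 0.192 and 0.786 in gallein. The highest and the lowest sample were both gallein samples, and the group levels were 0.643 ± 0.400 and 0.884 ± 0.745 CPM (SD, n = 3). From highest to lowest the order was gallein replicate 1, control replicate 1, gallein replicate 3, control replicates 2 and 3 and gallein replicate 2, and each neighbouring pair in it had overlapping Poisson intervals.

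By edgeR HNF4A differed by a log2 fold change of 0.46 ± 1.25 (SE) with an adjusted p of 0.969, a difference within the spread between replicates. Its direction was not settled: it was -0.38 without gallein replicate 1, -0.05 with library size only and -1.16 with spike-in totals as library size. Under that last scaling the median log2 fold change of all genes was -1.66, and under library size only it was -0.49, against 0.07 with TMM factors. Relative to these medians HNF4A lay at 0.50, 0.44 and 0.39, and the log2 ratio of HNF4G at 7.35, 7.35 and 7.38. The spread of HNF4A within the groups was wide, 3.61-fold between the highest and lowest control and 8.69-fold within gallein.

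**Figure D3:**
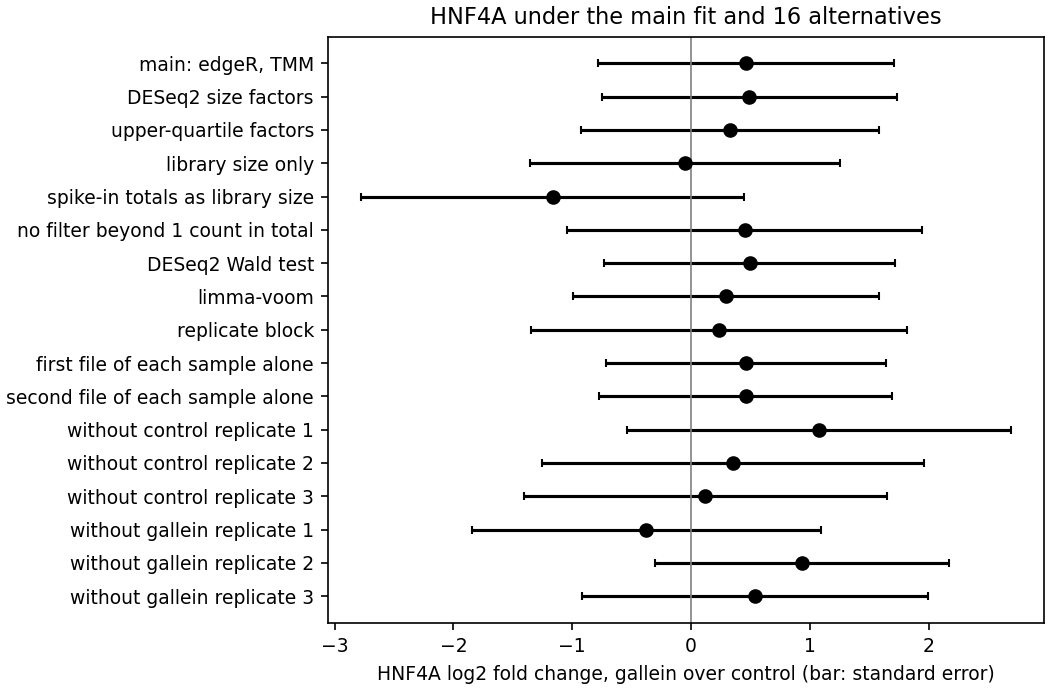
Log2 fold change of HNF4A, gallein over control, in the edgeR fit with TMM factors and in 16 alternatives; points are estimates and whiskers 1 standard error. All but the spike-in and library-size-only fits and the one without gallein replicate 1 lie above 0, and the estimates run from -1.16 to 1.08.

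The paralogues were also set against each other within each library, a ratio that needs no scaling between samples. There were 0.0465, 0 and 0 HNF4G counts per HNF4A count in control replicates 1 to 3, against 1.05, 19.8 and 2.86 in gallein. Each gallein ratio was above each control ratio, as followed from the choice of HNF4G. The high value of gallein replicate 2 rested on 4 HNF4A counts, and it is the library with 79 HNF4G counts. The ratio sets counts of genes of different length side by side, so it describes the change between samples and not which receptor had more transcripts.

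Genes that lie next to hnf4g on the chromosome had overlapping levels in the groups. In the RefSeq annotation of a later genome build the nearest protein-coding neighbours of hnf4g are zfhx4, which encodes a zinc-finger homeobox factor, and pign, which encodes an enzyme of glycolipid anchor synthesis. ZFHX4 (ENSDARG00000075542) stood at 28.0, 84.4 and 92.8 CPM in the controls against 24.1, 51.7 and 147 CPM in gallein. PIGN (ENSDARG00000077532) stood at 1.38, 0.308 and 0.115 CPM in the controls against 0.342, 1.35 and 0.895 CPM in gallein. For either gene the fit gave log2 fold changes of 0.12 ± 0.87 and 0.52 ± 1.31 (SE, edgeR adjusted p = 0.993 and 0.966). Beside hnf4a, ttpal (ENSDARG00000070644) was at 65.9 CPM in gallein replicate 1 and between 0.337 and 7.62 CPM in the other 5 libraries.

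The 5 genes with profiles nearest to HNF4G across the 6 samples were GAB1, ARHGAP1, il15, lrfn5b and ATG13. Likeness was measured as the root-mean-square difference between profiles of log2(CPM + 1), each centred on its own mean, and it ran from 0.195 for GAB1 to 0.236 for ATG13, against a median of 1.18 over 18270 genes. HNF4A lay at 1.01, in place 5408. GAB1, an adaptor protein of receptor tyrosine kinases, was at 12.1, 9.88 and 9.03 CPM in the controls against 22.9, 44.2 and 26.2 CPM in gallein. The cytokine gene il15 was at 0.931, 1.42 and 0.852 CPM in the controls against 4.37, 6.16 and 6.13 CPM in gallein. ATG13 encodes a factor of autophagy initiation and lrfn5b a synaptic adhesion protein. All 5 were well above 0 in the controls, unlike HNF4G, and since they were chosen for their profile their difference between groups is a description. The 1 added to CPM compresses low levels, so likeness by this measure is not likeness in fold change. By log2(CPM + 1) HNF4G averaged 0.0236 in the controls and 1.81 in gallein, while its pooled log2 ratio was 7.45.

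**Figure D4:**
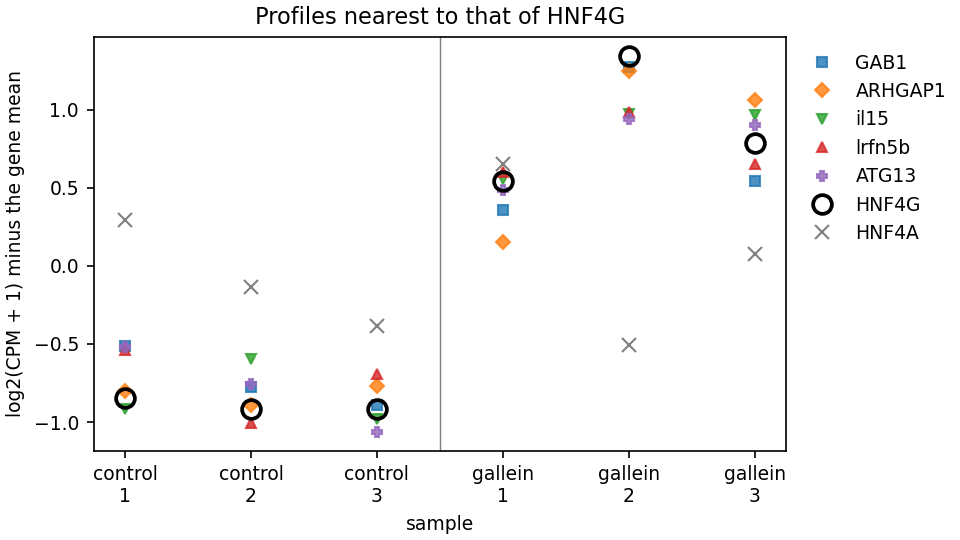
Centred profiles, log2(CPM + 1) minus the mean of the gene, of HNF4G (open circles), its 5 nearest genes (filled symbols) and HNF4A (crosses) in the 6 samples, each symbol 1 sample. The nearest genes, chosen for this likeness, follow HNF4G with differences of 0.195 to 0.236 on this scale, which compresses low levels. HNF4A is lowest in gallein replicate 2, where HNF4G is highest.

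Factors that act with or upstream of HNF4 in liver, gut or kidney, such as the HNF1, FOXA and GATA families, were measured in 13 genes, 10 of which were tested. By edgeR 0 rose and 0 fell, 5 had a positive and 5 a negative log2 fold change, and the median was -0.02 against 0.07 over all genes tested. With each library left out in turn it ran from -0.37 without control replicate 2 to 0.33 without control replicate 1. All gallein samples lay above all controls in 1 and below them in 0, where the shares among all genes tested were 3.81% and 5.22%. PROX1, a homeobox factor of liver and lymphatic development, was at 1383 CPM in gallein replicate 3 and between 15.6 and 47.9 CPM elsewhere. Its log2 fold change was 4.09 ± 1.54 (SE, edgeR adjusted p = 0.756), and 0.16 without that library. GATA5, a factor of heart and gut endoderm, held 202, 141 and 20 counts in the controls against 3, 0 and 20 in gallein. The edgeR estimate was a log2 change of -3.54 ± 1.54 (SE), with an adjusted p of 0.759. It was -5.39 without gallein replicate 3 and -2.64 without control replicate 1.

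Co-activators and co-repressors of nuclear receptors were measured in 11 genes, all tested, with 0 past the edgeR threshold in either direction, 7 of them positive, and a median of 0.43 that was 0.06 without gallein replicate 3. NCOR1, a co-repressor, was at 83.6, 66.5 and 73.0 CPM in the controls against 1219, 109 and 111 CPM in gallein, without overlap. Its log2 change of 2.69 ± 1.13 (SE) by edgeR, with an adjusted p of 0.756, was 0.56 without gallein replicate 1. The co-activator gene ncoa6 was at 50.2, 26.8 and 44.6 CPM in the controls against 121, 94.1 and 99.7 CPM in gallein, also without overlap. Its log2 fold change was 1.37 ± 0.71 (SE, edgeR adjusted p = 0.779). In 2 of the 11 genes all gallein samples lay above all controls and in 1 below, beside 3.81% and 5.22% of all genes tested.

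Other receptors known to bind DR1 elements, the RXR, PPAR, NR2F and NR2C genes, gave 19 tested genes with 0 past the edgeR threshold in either direction. Of these 6 were positive and 13 negative, with a median of -0.24 that was 0.06 without control replicate 1. The retinoid X receptor gene rxrbb was at 4.91, 4.07 and 7.30 CPM in the controls against 13.8, 41.1 and 8.89 CPM in gallein. All gallein samples lay above all controls in 1 of the 19 genes, rxrbb, and below them in 0, beside 3.81% and 5.22% of all genes tested. Its log2 fold change was 1.97 ± 0.79 (SE, edgeR adjusted p = 0.756), and 1.07 without gallein replicate 2. Its relative rxrgb rested on gallein replicate 1, at 26.5 CPM against 0.679 to 3.16 CPM elsewhere, and its log2 change of 2.22 ± 1.26 (SE) by edgeR, with an adjusted p of 0.784, was -0.69 without that library.

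Textbook HNF4 target genes of lipid, glucose, amino acid and clotting metabolism had mostly negative log2 fold changes. None passed the edgeR threshold, as none did among all genes tested. Of 25 genes measured 21 were tested, with 4 positive and 17 negative, and the median was -0.70. It was -1.71 without gallein replicate 1 and -0.15 without control replicate 1. All gallein samples lay below all controls in 4 and above them in 0 of these 21, beside 5.22% and 3.81% of all genes tested. APOB (ENSDARG00000042780), the structural protein of plasma lipoproteins, was at 42.7, 2.58 and 5.66 CPM in the controls against 1.03, 0 and 1.03 CPM in gallein, without overlap. Its log2 fold change was -4.61 ± 1.49 (SE, edgeR adjusted p = 0.756) and -2.57 without control replicate 1, and the DESeq2 Wald test gave an adjusted p of 0.0368. OTC, an enzyme of the urea cycle, held 36, 12 and 19 counts in the controls against 1, 0 and 4 in gallein. The edgeR estimate was a log2 change of -3.22 ± 1.53 (SE), with an adjusted p of 0.779.

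Marker genes of tissues in which HNF4 is at home were counted in the sorted samples, and their levels differed between samples. Which cells these transcripts came from was not tested. Hepatocyte markers, 18 genes that were all counted in at least 1 library, summed to 1179, 1291 and 316 CPM in the controls against 302, 12.8 and 128 CPM in gallein. Single genes carried much of these sums, with a2ml at 83.2% in control replicate 2 and tfa at 69.2% in control replicate 1. Without the leading gene of each library the groups overlapped, at 363, 217 and 131 CPM in the controls against 157, 8.61 and 67.4 CPM in gallein. The gene left out was tfa, a2ml or c9, depending on the library. The full sums did not overlap with library size only, at 394 to 1873 CPM in the controls against 8.22 to 208 CPM in gallein. With spike-in totals they did not overlap either, at 542 to 4858 CPM in the controls against 4.82 to 152 CPM in gallein. Of the 16 tested 15 were negative, the median was -1.94, and in 6 all gallein samples lay below all controls, beside 5.22% of all genes tested. The median was -1.10 without control replicate 1. Gallein replicate 2, the library with the highest HNF4G level by TMM scaling and the lowest HNF4A count, was also the one with the lowest summed hepatocyte level.

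Enterocyte markers, 16 genes that were all counted in at least 1 library, summed to 11.4, 13.7 and 13.1 CPM in the controls against 21.2, 60.7 and 36.0 CPM in gallein, so that their sum was higher in all gallein samples by this scaling, as HNF4G was. With library size only the groups overlapped, at 12.0 to 20.0 CPM in the controls against 14.6 to 43.1 CPM in gallein. The median over the 7 tested was 0.29, with 4 positive and 3 negative, and leaving out gallein replicate 1 gave -1.25, leaving out replicate 3 gave 1.29. The sum was carried by different genes in different libraries. ANPEP, an aminopeptidase gene, stood at 2.77, 31.2 and 31.5 CPM in gallein replicates 1 to 3 against 1.66 to 3.91 CPM in the controls, and mep1a.1 at 22.2 CPM in gallein replicate 2 with 0 counts in the other gallein samples. Without these 2 genes, which were singled out after their values had been seen, the sums were 9.79, 10.1 and 9.21 CPM in the controls against 18.4, 7.27 and 4.45 CPM in gallein.

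The fatty acid binding protein gene FABP2, a defining enterocyte marker, held 82, 0 and 2 counts in gallein replicates 1 to 3 and 12, 16 and 21 in the controls. VIL1, which encodes the microvillus protein villin, was at 0.760, 0.770 and 0.515 CPM in gallein and 1.74, 2.27 and 3.13 CPM in the controls, lower in all gallein samples. The markers of this list did not move together. ANPEP counts went the other way, with 649 in gallein replicate 2 and 1163 in gallein replicate 3, beside 66 to 203 in the controls. The part of enterocyte RNA in the HNF4G level was not tested.

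Kidney tubule (pronephros) markers, with 15 of 16 genes counted and aqp8b at 0, summed to 166 to 212 CPM in the controls against 287, 288 and 923 CPM in gallein, also higher in all gallein samples by TMM scaling. With library size only these groups overlapped too, at 207 to 255 CPM in the controls against 184 to 1105 CPM in gallein. Most of that sum was SLC20A1 (ENSDARG00000010641), a phosphate transporter gene, at 103 to 150 CPM in the controls against 220, 233 and 488 CPM in gallein. Symbol matching without a final letter also took a second SLC20A1 row (ENSDARG00000020114). That row was at 0.302 to 0.391 CPM in the controls against 0.874, 2.17 and 0.0271 CPM in gallein. Apart from the leading gene the sums were 53.6 to 63.1 CPM in the controls against 67.3, 54.7 and 435 CPM in gallein. Most of the 435 CPM was TRPM7, a channel kinase gene that was at 352 CPM in gallein replicate 3 and between 8.08 and 15.6 CPM elsewhere. The list median was 0.58 over 10 tested genes, 7 of them positive, 3 negative and 0 past the edgeR threshold, and 0.28 without gallein replicate 3. All gallein samples lay above all controls in 2 of these genes and below them in 1, beside 3.81% and 5.22% of all genes tested. The gene below was SLC13A3, with 28, 42 and 42 counts in the controls against 0, 1 and 1 in gallein. Its log2 fold change was -4.86 ± 1.55 (SE, edgeR adjusted p = 0.756). Markers with too few counts to be tested went both ways. The counts of cdh16 were 0, 6 and 16 and those of clcnk 0, 23 and 0 in the controls, and both were at 0 in gallein. CUBN held 0, 0 and 7 counts in the controls against 6, 77 and 0 in gallein. The part of kidney tubule RNA in the HNF4G level was not tested. Against the median of all genes the lists kept their sign under the 5 scalings run, with 1 exception: enterocyte markers ranged from -0.25 to 0.30.

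Pancreas markers, with all 17 genes counted in at least 1 library, summed to 48.1 to 72.8 CPM in the controls against 28.6 to 101 CPM in gallein, of which NEUROD1, a gene that neurons also express, made up 91.7% to 98.4%. Yolk markers, with 7 of 9 genes counted, summed to 3.47 to 5.13 CPM in the controls against 2.74 to 21.1 CPM in gallein, with vtg1 and vtg4 at 0 in all libraries. Only 2 genes of either list were tested, with 0 past the edgeR threshold. All 8 tested markers of mature olfactory neurons had a negative log2 fold change, with a median of -1.66 and 0 past the threshold, and the median was -1.09 without gallein replicate 2. Their sums overlapped between the groups, at 246, 145 and 2216 CPM in the controls against 224, 155 and 124 CPM in gallein. GNG13 led in every library and made up 59.9% to 97.3% of these sums. Without GNG13, left out after its values had been seen, the sum was 58.2 to 60.3 CPM in the controls against 26.1, 16.3 and 37.5 CPM in gallein.

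**Figure D5:**
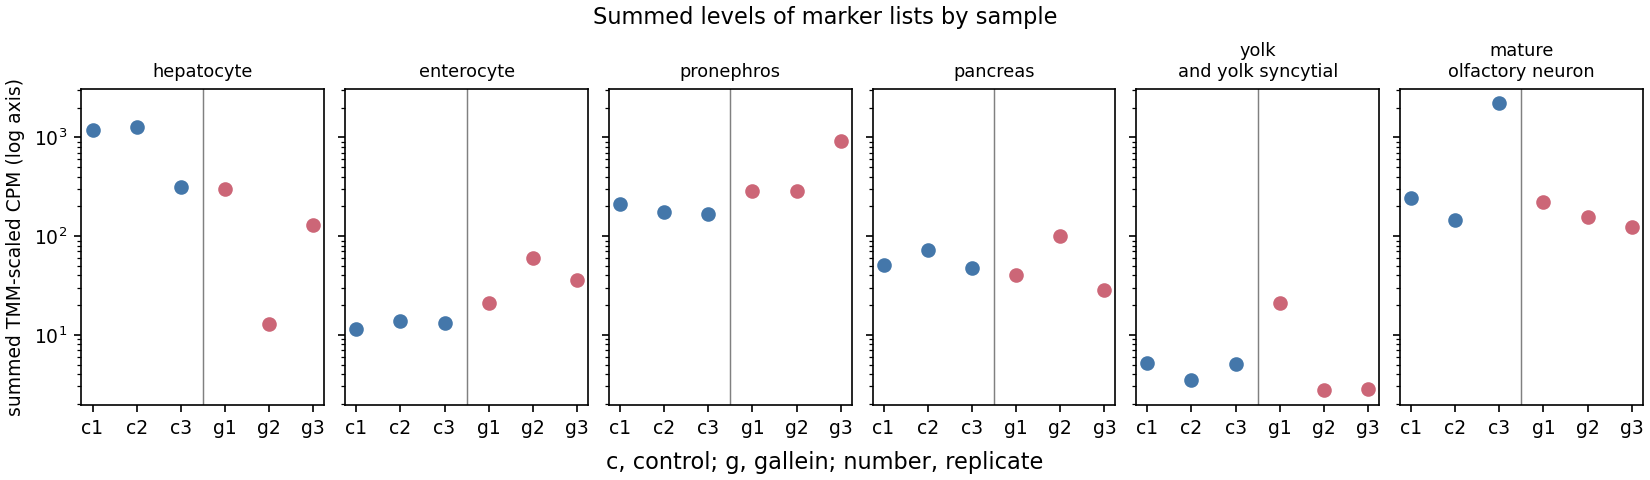
Summed TMM-scaled CPM (log axis) of 6 marker lists in the 6 samples, controls (c) in blue and gallein (g) in red, each point 1 sample. The hepatocyte sum is lowest in gallein replicate 2 at 12.8 CPM, the enterocyte and pronephros sums are higher in all gallein samples by this scaling but not with library size only, and the high olfactory point is control replicate 3.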

How the data were processed

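RNA sequencing of 3 control and 3 gallein samples was used. Gene-level read counts, deposited by the authors as whole numbers, came in 2 files per sample, and per the submitters' processing notes TopHat2 2.0.4, HTSeq and the build Zv9 were used. Strand use, counting mode and annotation release are nowhere stated in these sources, and reads of overlapping or antisense genes cannot be told apart. No coordinates or sequences are given. The 2 files of a sample were added together as 1 replicate. Library sizes and tests left out the 92 spike-in rows and 5 rows that count reads assigned to no gene (19.4% to 33.9% of a sample's total). A symbol table named 20734 gene identifiers, and genes without a symbol were kept under their identifiers. Symbols were matched without regard to case, and capital symbols also without a final a or b.

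The test was that of edgeR 4.0.16, run under R 4.3.3 (TMM factors, filterByExpr with minimum count 10, robust quasi-likelihood fit, group as the only term, Benjamini-Hochberg adjustment over 18271 genes). HNF4G and HNF4A both passed this filter. The standard error was the size of the log2 fold change divided by the square root of F. The labels call the samples biological replicates without naming separate clutches. The p-values set group differences against the spread between these samples, and whether they extend to other clutches is not known. Named genes were the members, the 5 genes nearest to HNF4G in profile and the 2 smallest-p tested genes of each of 4 lists. Marker genes, apobb.1, chromosomal neighbours and genes with the same count pattern were added afterwards. Members and lists were chosen with earlier results of these data known. Alternatives were other scalings, filters, DESeq2 1.42.0, limma-voom (limma 3.58.1), a replicate block, single files and leaving out each replicate.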

Additional observations from a re-analysis of the deposited data

How the results depend on the processing

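edgeR called 0 genes under every alternative run, each replicate left out in turn included, and limma-voom called 0, while the DESeq2 Wald test called 94. For HNF4A, 13 of 16 alternatives were positive and none passed the threshold (adjusted p from 0.610 to 1.00). The log2 fold change reversed to -0.050 with library size only and to -1.16 with spike-in totals as library size, and ran from -0.38 to 1.08 with each replicate left out in turn. With at least 10 counts in every sample neither gene was tested. The log2 ratio of HNF4G, 7.45 in the pooled counts, was positive in 12 of 12 alternatives, a direction that the choice of the gene fixes. It was 6.86 with library size only, 5.69 with spike-in totals, at least 6.09 in the first file alone, where the controls held 0 counts, and 6.19 in the second file alone. With each replicate left out it ran from 6.39, a bound, to 7.64. Filters, other tests and the block do not enter that ratio, and hnf4b gave no value. Same-numbered samples deviated together with correlations of 0.0702, -0.103 and 0.171, and 3 of 6 samples correlated best with their own number. These values show no clear pairing by number, and they cannot exclude one. With the replicate block HNF4A was at 0.24 (edgeR adjusted p = 0.999) and 0 genes were called. At 0 to 83 counts per library, counting error alone is wide for both genes, and the cause of these shifts was not tested.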
